A study of Mus musculus with 4 samples.

Results

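The comparison set the 2 whole-lung libraries labelled Dnah9 knockout against the wild type library and the library labelled Hez combined, so that each side held 2 of the study's 4 libraries. All 4 came from untreated C57BL6 mice aged 2 months. Hez is a genotype label that the sources used here do not explain, and they do not give the Dnah9 allele, the sex of the mice or whether animals were pooled. A gene was described when its mean was 5 reads per 1000000 counted reads (CPM) or more and both knockouts lay on the same side of both references, which is called separated here. Of 21931 genes in the table, 12085 reached 5 CPM and 4115 of these (34.1%) were separated.

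Dnah9 encodes a heavy chain of the outer dynein arm, the motor that drives the beat of motile cilia. In the lung, motile cilia stand on the multiciliated cells of the airways, where they move mucus. Whole lung holds far more alveolar, vascular and immune cells than ciliated cells, and its dissection can bring along fat, pleura and the heart muscle that sheathes mouse pulmonary veins. Each library is therefore a mixture, and fewer cells of a type and less RNA per cell cannot be told apart.

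The libraries held 15860478 to 16553480 counted reads over 16445 to 16571 genes with reads. Surfactant protein C (Sftpc), the defining transcript of alveolar type 2 cells, stood at 12158 to 13878 CPM, and the lung markers Sftpb, Ager, Scgb1a1, Foxj1 and Cldn5 were all present. The median absolute log2 difference between libraries was 0.109 for wild type and Hez and 0.117 for the 2 knockouts, against 0.113 to 0.119 for the 4 pairs that crossed the comparison. The spread within each side was thus about as large as the spread between the sides. Since no label ties the libraries to separate litters or batches, p-values measure no more than the spread among these 4 samples, part of which may be technical.

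The targeted gene was checked first. Dnah9 (chromosome 11, 65722108 to 66059377, minus strand, GRCm39) had 917 reads in wild type, 420 in Hez, and 240 and 254 in the knockouts. These are 56.6 CPM, 25.4 CPM, 14.8 CPM and 15.99 CPM, with 95% exact Poisson intervals of 53 to 60.3, 23 to 27.9, 13 to 16.7 and 14.1 to 18.1 CPM that cover counting error only. Both knockouts were below both references, at 26.1% and 28.3% of wild type, but they still held 58.1% and 63% of the Hez level. Reads per exon were not analysed here, so these totals do not show which part of the transcript was counted. The log2 fold against wild type and Hez together was -1.42 with a standard error of 0.33, and it did not pass edgeR's quasi-likelihood test (adjusted p = 0.627). The references themselves differed by more than the knockouts did from Hez. With the 3 genotypes fitted as separate groups the log2 fold was -1.31, and with the Hez library left out it was -1.88. In both fits the spread came from the 2 knockouts alone, so the difference between the references was not counted.

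Across 14674 genes tested, 2 fell in the knockouts and none rose at an adjusted p under 0.05 by edgeR's quasi-likelihood test (0.0136% and 0% of genes tested). The genes that fell were Zbtb16 and Cfd. At an unadjusted p under 0.05 there were 741 genes (5.05%), 338 higher (2.3%) and 403 lower (2.75%), where 734 would be expected if no gene differed. DESeq2's Wald test called 6 genes higher and 16 lower on the same counts, and limma-voom called 0 higher and 1 lower. The median log2 fold over all genes tested was -0.00262. An exact permutation test over the libraries cannot go below a two-sided p of 0.333 with 2 against 2, so no single gene was tested that way.

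The condition for separation is loose, and many genes met it. If the 4 libraries were interchangeable, the expected share of separated genes would be 0.333, and the share found was 34.1%. The number of separated genes alone therefore shows no difference between the sides. Of the 12085 genes at 5 CPM or more, 2283 were higher in both knockouts (18.9%) and 1832 were lower in both (15.2%). The step between the nearest knockout and the nearest reference had a median of 1.041-fold among them. A step of 1.1-fold or more left 414 higher and 388 lower genes, 1.3-fold left 31 and 58, and 1.5-fold left 2 and 19. Lower genes therefore made up most of those with a wide step, although the higher genes were more numerous in all. The higher genes had a median length of 4197 bases and the lower genes 5389 bases, against 4676 bases over all genes at 5 CPM, and the share that was higher ran from 14.6% at 5 to 10 CPM to 22.5% at 100 CPM or more. At the edge of the rule, Coa5 and Tm9sf4 were separated by a ratio of 1, and Glg1 and Cds2 overlapped at ratios of 0.99999 and 0.99997.

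**Figure D1:**
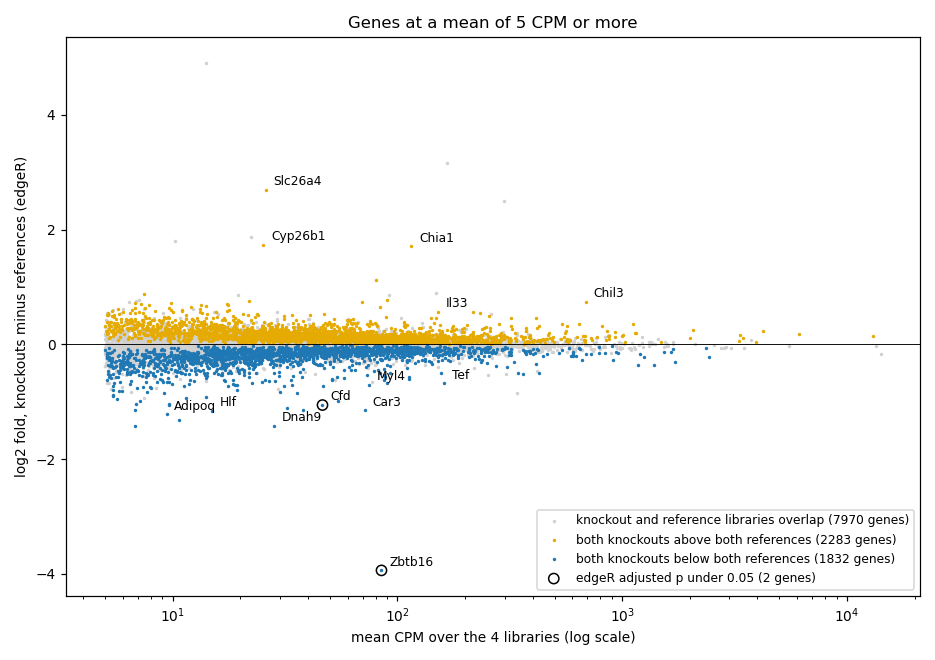
Mean CPM over the 4 libraries (x axis, log scale) against the edgeR log2 fold of knockouts over references (y axis), 1 point per gene at 5 CPM or more. The 2283 genes with both knockouts above both references are yellow, the 1832 with both below are blue, the 7970 that overlap are grey, and circles mark the 2 genes with an adjusted p under 0.05. Zbtb16, at a log2 fold of -3.94, lies far below every other gene shown.

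Zbtb16 encodes PLZF, a zinc finger transcription factor that innate-like lymphocytes need and that glucocorticoids induce in many tissues. It lies on chromosome 9 (48565597 to 48747522, minus strand, GRCm39). It stood at 190 CPM in wild type and 129 CPM in Hez, and at 11.4 and 9.44 CPM in the knockouts. The lower reference exceeded the higher knockout 11.3-fold, the widest step of all genes at 5 CPM or more. The log2 fold was -3.94 with a standard error of 0.20 (edgeR adjusted p = 0.00109). It passed under 13 of 15 alternative settings. The exceptions were a pair of limma fits to log2 FPKM, in which 1 was added to each value or the low values were kept, and the highest adjusted p was 0.367. Within 1 Mb of Zbtb16, 9 genes reached 5 CPM, of which 0 were higher and 3 lower, none of them called. Of 28 Zbtb family members at 5 CPM, 3 were higher and 4 lower, counting Zbtb16, with a median log2 fold of -0.04.

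Cfd encodes complement factor D, a protease that fat cells secrete, and lies on chromosome 10 (79726687 to 79728489, plus strand, GRCm39). Its level was 64.0 CPM in wild type and 61.2 CPM in Hez, and 32.3 and 28.1 CPM in the knockouts. The references were close to each other and both were well above the knockouts. The log2 fold was -1.06 with a standard error of 0.10 (edgeR adjusted p = 0.0446). This call was close to the threshold and passed under 7 of 15 alternative settings. The adjusted p was 0.156 without the wild type library, 0.0504 without the Hez library, 0.117 at a mean of 10 CPM or more and 0.0624 with limma-voom. In the limma fits to log2 FPKM it was 0.199 to 0.709.

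The other genes with the smallest p-values on the lower side missed the threshold, with adjusted p-values of 0.197 to 0.366 in edgeR. Most belong to heart muscle, fat or the circadian clock. Myl4, the light chain of atrial myosin, measured 97.8 CPM in wild type, 86.6 in Hez, and 56.0 and 57.4 in the knockouts. Tnnt2, cardiac troponin T, measured 145, 126, 86.2 and 92.9 CPM in the same order. The knockouts were closer to each other than to either reference for both genes. Car3, a carbonic anhydrase abundant in fat and muscle, measured 85.4 and 112 CPM in the references and 50.4 and 38.8 CPM in the knockouts. Adipoq, the fat cell hormone adiponectin, measured 12.8 and 13.4 CPM against 6.15 and 5.16 CPM.

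Tef and Hlf encode related transcription factors of the circadian output. Tef stood at 183 CPM in wild type and 214 CPM in Hez, against 129 and 121 CPM in the knockouts (log2 fold -0.68, standard error 0.09, edgeR adjusted p = 0.294). Hlf stood at 17.9 and 23.2 CPM against 8.30 and 10.2 CPM (log2 fold -1.16, standard error 0.19, edgeR adjusted p = 0.366). Fkbp5, a co-chaperone of steroid receptors, had 55.1 and 49.4 CPM against 28.5 and 18.9 CPM. The second knockout was the lowest library for Fkbp5 and Tef, and the first for Hlf.

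Of the remaining genes, 3 had steps of 1.29- to 1.37-fold with little spread on either side. Mertk, a receptor through which phagocytes take up dying cells, had 110 and 107 CPM in the references and 75.6 and 78.4 CPM in the knockouts. Zhx3, a zinc finger and homeobox protein, had 99.1 and 108 CPM against 72.1 and 70.6 CPM. Xdh, the xanthine dehydrogenase of purine breakdown, had 474 and 523 CPM against 367 and 338 CPM.

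**Figure D2:**
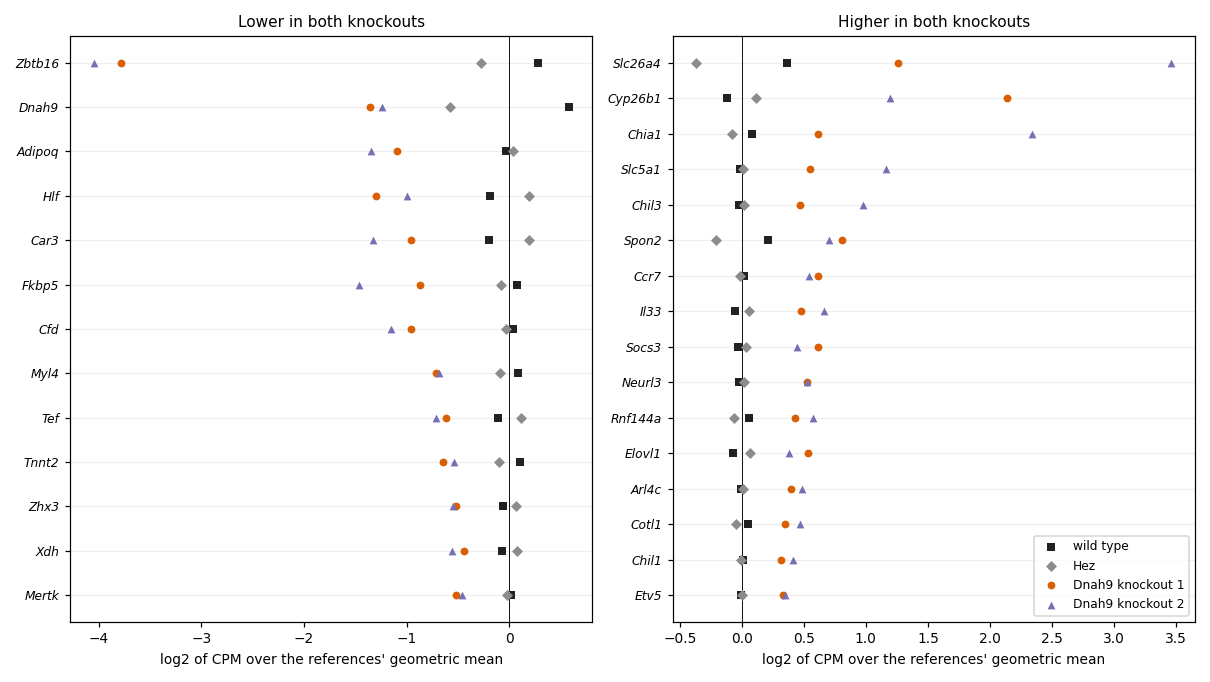
The 29 genes chosen for description, with log2 of CPM over the geometric mean of the references on the x axis. Squares are wild type, diamonds Hez, circles the first and triangles the second knockout, and each row is 1 gene. In every row both knockouts lie on the same side of both references, with the 2 knockouts far apart for Slc26a4 (16.1 and 73.8 CPM) and Chia1 (82.0 and 272 CPM).

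On the higher side no gene passed the test, and the adjusted p-values of the 12 genes with the smallest p were 0.358 to 0.577 in edgeR. Il33, an alarm cytokine held in the nucleus of alveolar type 2 cells, led them with 117 CPM in wild type and 127 CPM in Hez, against 170 and 193 CPM in the knockouts (log2 fold 0.57, standard error 0.09, adjusted p = 0.358). Cyp26b1, which degrades retinoic acid, had the widest step upward, at 10.7 and 12.6 CPM in the references and 51.3 and 26.7 CPM in the knockouts (log2 fold 1.73, standard error 0.29, adjusted p = 0.368). The first knockout was well above the second for this gene.

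Neurl3 and Rnf144a encode ubiquitin ligases. Neurl3 was at 33.1 and 34.0 CPM in the references and at 48.2 CPM in each knockout, so each side held close values. Rnf144a was at 221 and 203 CPM against 284 and 314 CPM. Socs3, a feedback inhibitor of cytokine receptors, was at 37.8 and 39.4 CPM against 59.2 and 52.4 CPM. All 3 had knockouts closer to each other than to the references. Spon2, a secreted matrix protein, was at 59.3 and 44.4 CPM against 89.6 and 83.7 CPM. Elovl1, which lengthens fatty acids, was at 333 and 366 CPM against 506 and 453 CPM. The references of Spon2 were further apart than its knockouts. The remaining genes of this group, Arl4c and Cotl1, had steps of 1.31- and 1.23-fold. Ccr7, the chemokine receptor of migrating dendritic cells, was at 12.6 and 12.3 CPM against 19.1 and 18.1 CPM.

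Of the chitinase and chitinase-like genes Chil1, Chil3 and Chia1 were separated on the higher side, though none was called. Chil1 was at 984 and 971 CPM in the references and 1217 and 1301 CPM in the knockouts. Chil3, made by alveolar macrophages, was at 509 and 524 CPM against 713 and 1019 CPM. Chia1, the acidic chitinase, was at 56.7 and 50.8 CPM against 82.0 and 272 CPM. The second knockout was the highest library for all 3, and the difference was widest for Chia1. Chil4, a further chitinase-like gene, was not separated, at 1.79 CPM in wild type, 0 in Hez, 0.123 in the first knockout and 54.1 in the second. Slc26a4, an anion exchanger of epithelia, followed the same order with 8.63 and 5.20 CPM against 16.1 and 73.8 CPM, as did Slc5a1, a sodium-glucose transporter, with 5.18 and 5.26 CPM against 7.63 and 11.7 CPM. Retnla, a secreted protein of type 2 inflammation, was not separated: it was at 123 CPM in wild type, 54.2 in Hez, 122 in the first knockout and 888 in the second. Chia1 and Slc26a4 passed the test under 1 of 15 alternatives, without the first knockout (adjusted p = 2.71e-07 and 3.51e-06).

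Gene lists were read by the share of their members at 5 CPM or more that were separated, beside the background of 18.9% higher and 15.2% lower. Among lists with at least 8 such members, heart muscle genes, clock output genes, fat cell markers, mesothelial markers and erythroid genes (5 of 10) had the highest shares on the lower side. At a step of 1.1-fold or more 19 heart muscle, 10 clock output, 6 fat cell and 4 mesothelial genes stayed lower, and 0 erythroid genes. Those on the higher side were MHC class II genes, alveolar type 2 markers, cholesterol and fatty acid synthesis genes, unfolded protein response genes, heat shock genes and alveolar macrophage markers. Skeletal muscle markers, with 3 of 5 lower, were too few to be read. Apart from Zbtb16 and Cfd no member of any list was called, and members of a list can share cells and regulation, so the counts are a description.

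**Figure D3:**
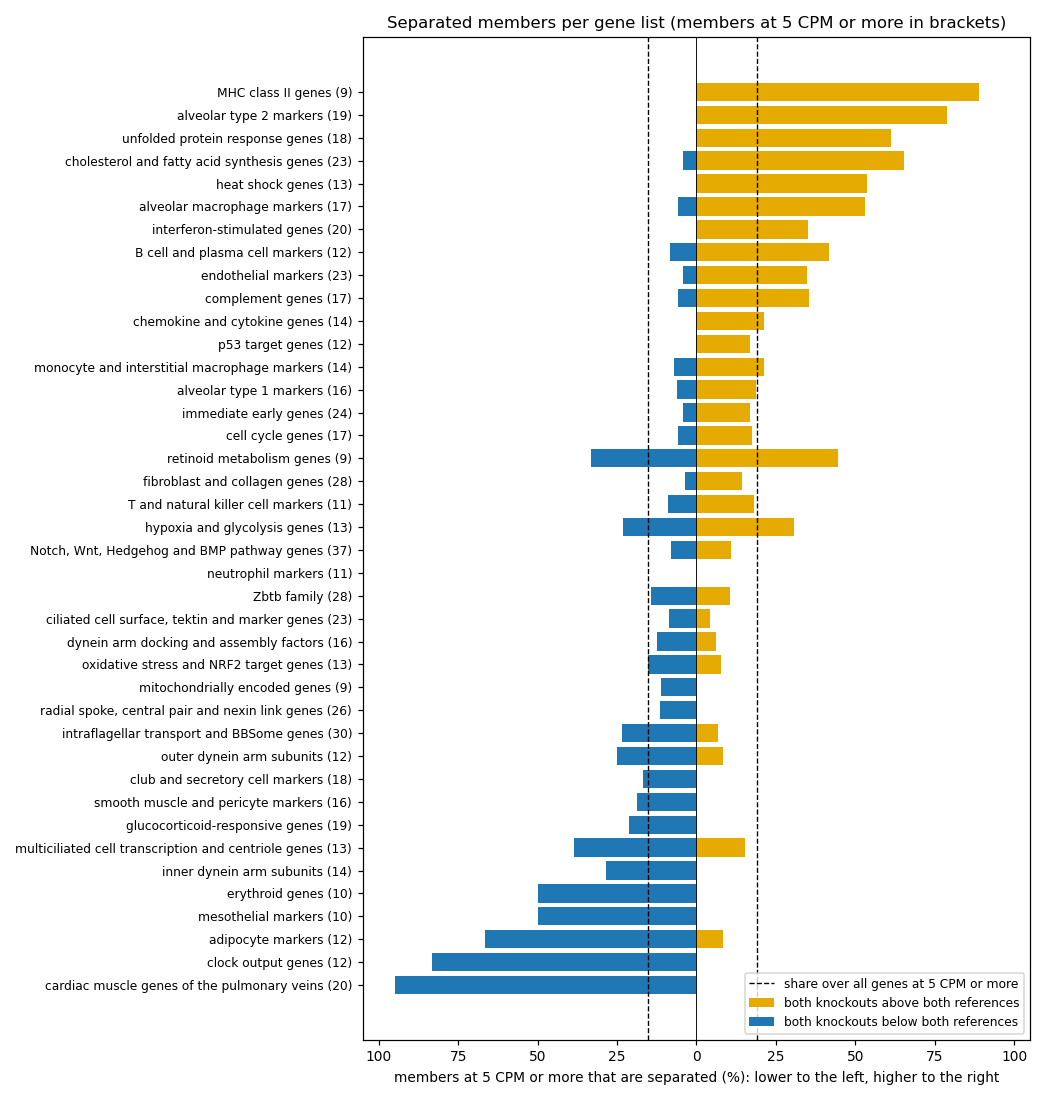
Share of each list's members at 5 CPM or more with both knockouts above both references (yellow, to the right) or below both (blue, to the left), in percent, with the number of members in brackets. Dashed lines mark the shares over all 12085 genes, 18.9% higher and 15.2% lower. Heart muscle and clock output genes extend furthest to the left and MHC class II genes and alveolar type 2 markers furthest to the right.

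The circadian clock turns over a loop in which CLOCK and ARNTL drive the Per, Cry and Nr1d repressors and the PAR bZIP factors Dbp, Tef and Hlf. Of 12 clock output genes at 5 CPM, 10 were lower in both knockouts and none was higher, with a median log2 fold of -0.58, and all 10 kept a step of 1.1-fold or more, a condition that 3.21% of all genes met on the lower side. Dbp stood at 11.4 and 14.3 CPM in the references and 4.98 and 7.62 CPM in the knockouts. Per2 stood at 38.0 and 39.0 CPM against 25.3 and 18.1 CPM. Nr1d1 stood at 95.6 and 126 CPM against 74.96 and 64.2 CPM. Hez was the highest library for Hlf, Dbp, Nr1d1 and Tef. The exceptions were Per1 and Bhlhe41, in which the first knockout lay within the references.

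Genes of the opposite phase were mixed. Among 6 at 5 CPM, 3 were higher and 1 lower, with a median log2 fold of 0.07. Npas2, a partner of ARNTL, stood at 23.2 CPM in wild type and 14.7 CPM in Hez against 26.5 and 24.7 CPM, and Arntl itself at 43.9 and 38.8 CPM against 46.7 and 41.2 CPM, which overlap. The labels give no time of day for the collections, so its part in these values was not tested.

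Promoters of the clock genes are shown because 10 of the 12 genes lay on one side. The E-box, CACGTG, is the site CLOCK and ARNTL bind, and the D-box, TTATGTAA, the site of the PAR bZIP factors. In RefSeq promoters (GRCm38.p6, 250 bases before to 50 after the start, both strands searched), 11 of the 12 clock output genes had an entry. Of these 11, 4 held an E-box in any promoter (36.4%). The share was 11.6% for the 9634 genes at 5 CPM with an entry and 8.09% for all 27025 genes with an entry. The 4 were Tef and Ciart, which were lower in both knockouts, and Per1 and Bhlhe41, the members that were not. Over all genes at 5 CPM with an entry, an E-box was in 11.7% of those lower in both knockouts and 12% of those that overlapped. A D-box was found in 1 of the 11, against 0.706% of genes at 5 CPM and 1.11% of all genes with an entry. A match is a description of letters and not of binding. The 250 bases before the start are printed 5′ to 3′ on the gene's strand, with E-boxes in capitals for Ciart, a repressor of the clock (chr3:95882229-95882478, minus strand), and D-boxes in capitals for Per3 (chr4:151044666-151044915, minus strand). No match printed overlaps another motif searched.
Ciart: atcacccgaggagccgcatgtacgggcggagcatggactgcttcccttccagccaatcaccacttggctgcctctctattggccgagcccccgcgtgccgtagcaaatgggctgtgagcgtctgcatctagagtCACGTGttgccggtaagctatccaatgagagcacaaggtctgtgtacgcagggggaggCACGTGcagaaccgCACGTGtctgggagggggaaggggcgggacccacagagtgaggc
Per3: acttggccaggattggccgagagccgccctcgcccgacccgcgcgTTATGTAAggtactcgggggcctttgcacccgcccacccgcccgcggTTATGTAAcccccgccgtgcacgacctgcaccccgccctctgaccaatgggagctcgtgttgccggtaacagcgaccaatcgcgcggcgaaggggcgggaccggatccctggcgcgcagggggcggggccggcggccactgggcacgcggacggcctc
Ciart, with its 3 E-boxes, measured 21.0 CPM in wild type and 18.9 in Hez against 16.2 and 15.9 CPM in the knockouts. Per3, with its 2 D-boxes, measured 37.9 and 43.7 CPM against 24.6 and 28.7 CPM.

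Heart muscle genes are expressed in the lung by the cardiomyocytes around the pulmonary veins, and a dissection near the heart can change how much of that tissue is sampled. Of 20 such genes at 5 CPM, 19 were lower in both knockouts, all by a step of 1.1-fold or more, with a median log2 fold of -0.55. Smpx, a small muscle protein, stood at 7.03 and 7.01 CPM in the references and 4.06 and 3.59 CPM in the knockouts. Csrp3, a protein of the muscle Z-disc, stood at 22.6 and 26.5 CPM against 14.3 and 14.0 CPM, and Hspb7, a small heat shock protein of the heart, at 48.1 and 29.98 CPM against 24.97 and 22.2 CPM. Myh6, the atrial myosin heavy chain, had the highest level of the list, at 395 and 455 CPM against 252 and 348 CPM. Myh7, the myosin of slow and ventricular muscle, was the exception, with 13.0 and 11.97 CPM in the references and 15.1 and 11.6 CPM in the knockouts. The summed level of the list was 1500 CPM in wild type and 1432 CPM in Hez, against 948 and 1099 CPM in the knockouts. Nppa and Nppb, natriuretic peptides of the heart chambers, were under 3 CPM in every library. Skeletal muscle markers summed to 118 and 88.0 CPM against 74.2 and 79.1 CPM. The part of sampled vein wall in the heart muscle values was not tested.

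Fat cell markers were lower in 8 of 12 members at 5 CPM and higher in 1, with a median log2 fold of -0.63. Plin1, a coat protein of fat droplets, stood at 7.65 and 11.1 CPM in the references and 4.74 and 3.78 CPM in the knockouts. Fabp4, a fatty acid carrier of fat cells that macrophages also make, stood at 38.9 and 48.7 CPM against 25.5 and 15.3 CPM. The second knockout was the lower of the 2 for Cfd, Car3, Adipoq, Plin1 and Fabp4. By library, the median of the list relative to the references was -0.29 in the first knockout and -0.98 in the second (log2). Pparg, which alveolar macrophages also express, was the member that was higher, at 11.5 and 12.6 CPM against 12.8 and 15.1 CPM. Lep, the hormone leptin, and Ucp1, the heat-making protein of brown fat, were under 1 CPM in all 4 libraries. The summed level of the list, 4436 and 3940 CPM against 4217 and 4189 CPM, was set mostly by Scd1, which type 2 cells also make, at 3373 to 3882 CPM.

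Mesothelial markers, from the pleural lining, were lower in 5 of 10 members at 5 CPM, with a median log2 fold of -0.63. Muc16 stood at 12.2 and 13.9 CPM against 7.20 and 5.35 CPM. Msln stood at 36.5 and 47.8 CPM against 32.5 and 19.3 CPM, and Upk3b at 37.3 and 54.5 CPM against 35.1 and 16.1 CPM. Here too the second knockout was the lowest library, and the median relative to the references was -0.26 in the first knockout and -0.66 in the second. The list summed to 485 and 501 CPM in the references against 435 and 350.4 CPM. The amounts of fat and pleura in each sample were not tested as sources of the Cfd, Car3 and Adipoq values.

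Glucocorticoids reach the lung through the blood and act through a receptor that induces Zbtb16, Fkbp5, Tsc22d3 and Per1, among others. Only 4 of 19 members at 5 CPM were lower in both knockouts and none was higher, close to the background of 15.2%. Besides Zbtb16 and Fkbp5, these were Map3k6, a stress kinase, at 59.8 and 56.8 CPM in the references and 49.9 and 20.6 CPM in the knockouts, and Sult1a1, a sulfotransferase, at 62.4 and 78.04 CPM against 60.2 and 50.2 CPM. The list differed between the knockouts themselves: its median relative to the references was 0.11 in the first and -0.84 in the second. Its median log2 fold, -0.30 over both, was 0.10 without the second knockout and -0.845 without the first. Zbtb16 itself was close in the 2 knockouts, at 11.4 and 9.44 CPM.

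**Figure D4:**
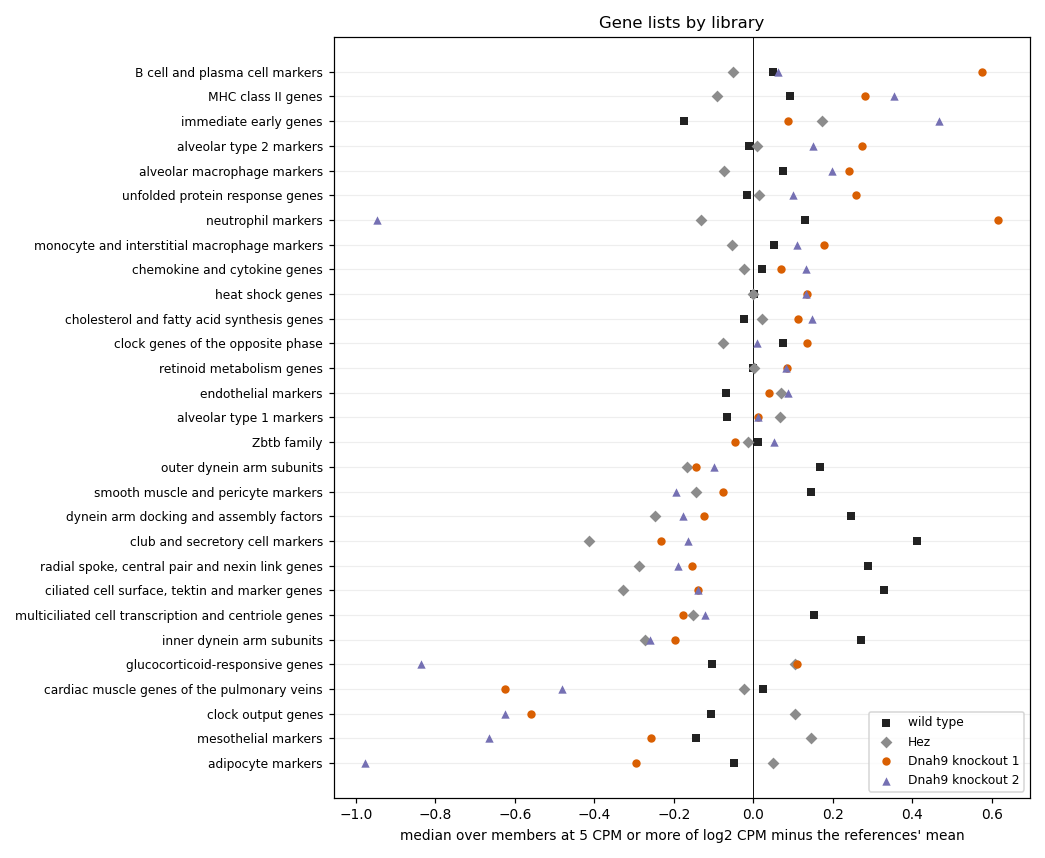
Median over each list's members at 5 CPM or more of log2 CPM minus the mean of the references (x axis), 1 symbol per library. Squares are wild type, diamonds Hez, circles the first and triangles the second knockout. Heart muscle and clock output genes have both knockouts to the left of both references. For the ciliated cell surface and club cell lists both knockouts lie between wild type and Hez, nearer to Hez.

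Retinoid metabolism genes went both ways. Of 9 at 5 CPM, 4 were higher and 3 lower, with a median log2 fold of 0.06 that was -0.18 without the Hez library. Lrat, which stores retinol as esters, was at 47.9 CPM in wild type and 84.3 CPM in Hez against 114 and 115 CPM in the knockouts. Hez thus lay between wild type and the knockouts. The log2 fold of Lrat was 0.78 against both references (edgeR adjusted p = 0.689) and 1.25 without Hez. Aldh1a2, which makes retinoic acid and marks mesothelium, was at 18.4 and 20.3 CPM against 14.7 and 12.8 CPM. Aldh1a1, which has the same enzymatic role and is abundant in club cells, was at 1429 and 1254 CPM against 1231 and 1067 CPM.

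Alveolar type 2 cells make surfactant and renew the alveolar lining. Of 19 markers at 5 CPM, 15 were higher in both knockouts and none was lower, with a median log2 fold of 0.19, and all 19 log2 folds were positive. The size was small, and 5 of the 15 kept a step of 1.1-fold or more, which 3.43% of all genes did on the higher side. Etv5, a transcription factor that keeps the type 2 state, stood at 180 and 181 CPM in the references and 227 and 229 CPM in the knockouts (log2 fold 0.33, standard error 0.07, edgeR adjusted p = 0.573). Lrp2, an endocytic receptor, stood at 122 and 127 CPM against 197 and 147 CPM, and Sftpd, a collectin of surfactant, at 744 and 695 CPM against 999 and 812 CPM. Sftpc, at 12158 and 12674 CPM against 13878 and 13785 CPM, had a log2 fold of 0.15. The first knockout was the higher of the 2 for all markers but Chil1, Etv5 and Hc. Markers of alveolar type 1 cells, the flat cells of gas exchange, were higher in 3 of 16 (18.8%), near the background of 18.9%. They were lower in 1, with a median of -0.01.

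**Figure D5:**
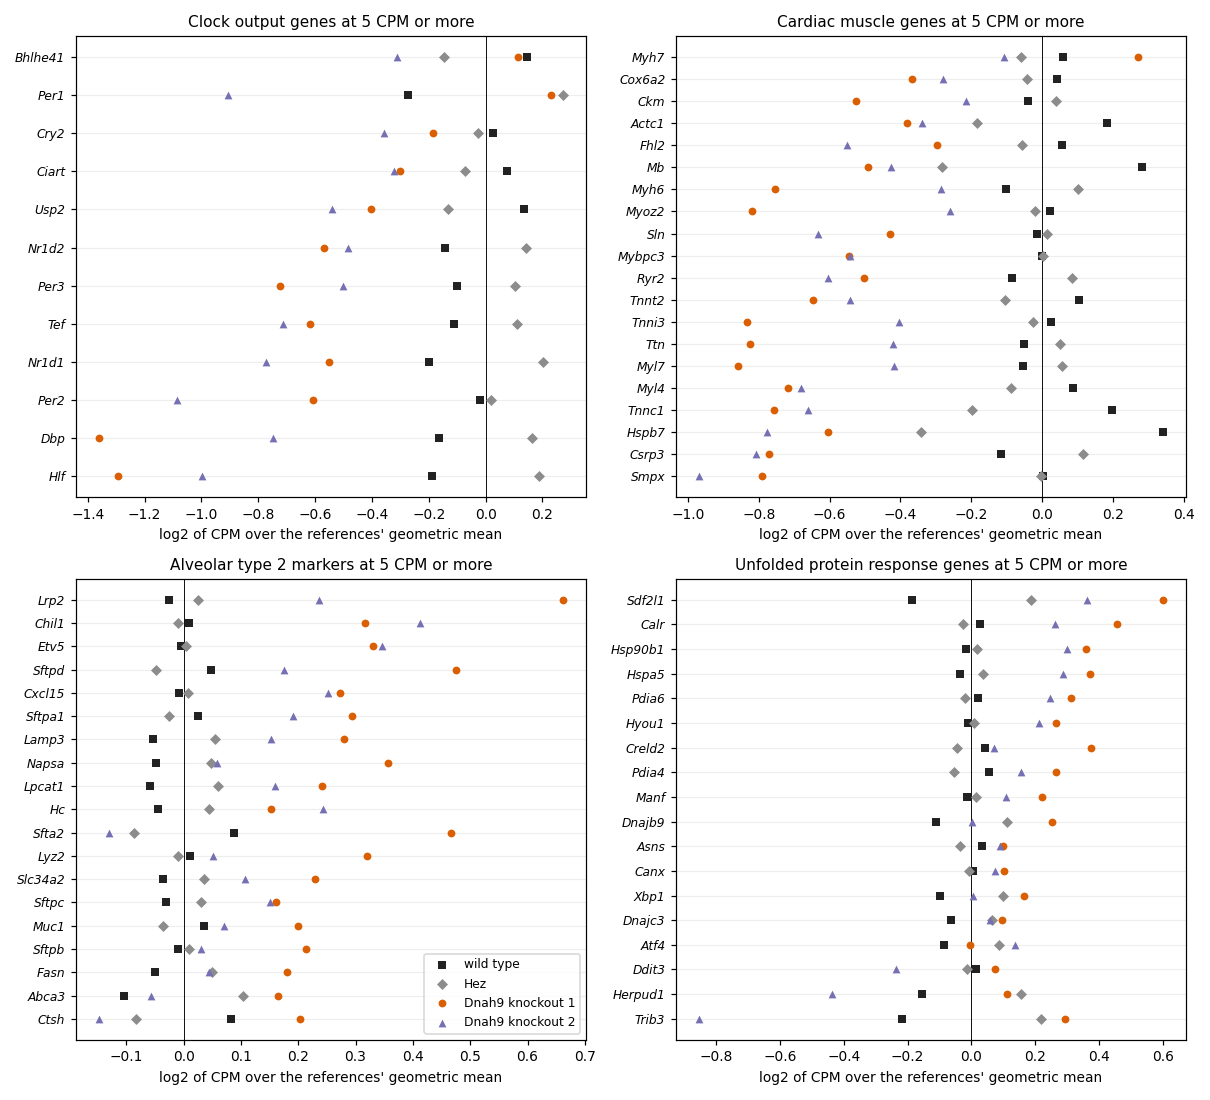
Every member at 5 CPM or more of 4 lists, with log2 of CPM over the geometric mean of the references on the x axis and 1 row per gene. Squares are wild type, diamonds Hez, circles the first and triangles the second knockout. In 10 of 12 clock output and 19 of 20 heart muscle rows both knockouts are left of both references, and in 15 of 19 type 2 and 11 of 18 unfolded protein response rows both are to the right.

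The unfolded protein response raises chaperones and folding enzymes of the endoplasmic reticulum when the load of secreted protein grows. Of 18 members at 5 CPM, 11 were higher in both knockouts (61.1%, beside a background of 18.9%) and none was lower. The median log2 fold was 0.16, and 6 of the 11 kept a step of 1.1-fold or more. The 11 were the chaperones and disulfide isomerases of the ER lumen for the most part. Hspa5 (BiP), the master chaperone, stood at 493 and 518 CPM in the references and 655 and 617 CPM in the knockouts. Calr, calreticulin, stood at 480 and 463 CPM against 647 and 565 CPM, Hsp90b1 at 372 and 382 CPM against 484 and 464 CPM, and Sdf2l1 at 11.5 and 14.9 CPM against 19.8 and 16.8 CPM. The first knockout was the highest library for each of these. Ddit3 and Trib3, genes of the PERK arm that accompany cell death, overlapped, with the second knockout lowest at 7.93 and 3.34 CPM. Without the first knockout the list's median was 0.09, and without the second 0.26.

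The ER stress element, CCAAT followed 9 bases later by CCACG, is bound by ATF6 with NF-Y. In the RefSeq promoters described above, 17 members of the list had an entry and 7 held the element on either strand (41.2%). It was held by 16 of the 9634 genes at 5 CPM (0.166%) and 37 of all 27025 genes with an entry (0.137%). Of those 16 genes, 9 were higher in both knockouts and 0 lower, beside the background of 18.9% and 15.2%. Of the 7 on the list, 6 were higher (Calr, Canx, Creld2, Hsp90b1, Hspa5 and Pdia6), which the count of the list already holds. Of the 9 outside it, 3 were higher (Adcy3, Pan2 and Syvn1) and 6 overlapped. The promoters of 3 highly expressed members of the list are shown with the element in capitals, 250 bases before the start, 5′ to 3′ on the gene's strand: Hspa5 (chr2:34771840-34772089, plus strand), Hsp90b1 (chr10:86705445-86705694, minus strand) and Calr (chr8:84846932-84847181, minus strand).
Hspa5: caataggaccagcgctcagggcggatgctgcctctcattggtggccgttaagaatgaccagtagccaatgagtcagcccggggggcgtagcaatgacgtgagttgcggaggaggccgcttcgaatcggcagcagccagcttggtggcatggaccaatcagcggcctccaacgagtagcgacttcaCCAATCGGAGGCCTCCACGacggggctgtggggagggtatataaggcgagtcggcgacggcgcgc
Hsp90b1: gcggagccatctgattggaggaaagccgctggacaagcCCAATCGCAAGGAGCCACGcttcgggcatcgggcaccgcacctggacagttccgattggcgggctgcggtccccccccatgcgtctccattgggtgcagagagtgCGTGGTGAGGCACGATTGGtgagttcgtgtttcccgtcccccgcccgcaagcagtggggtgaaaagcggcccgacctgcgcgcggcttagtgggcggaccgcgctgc
Calr: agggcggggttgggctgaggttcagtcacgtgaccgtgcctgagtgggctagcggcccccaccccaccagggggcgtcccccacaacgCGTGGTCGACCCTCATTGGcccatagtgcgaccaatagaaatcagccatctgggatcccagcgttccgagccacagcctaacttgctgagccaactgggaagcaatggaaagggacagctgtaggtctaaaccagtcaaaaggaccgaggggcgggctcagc
The element of Hspa5 begins 65 bases before the start. Hsp90b1 holds 2, beginning 212 and 107 bases before it, the nearer one on the opposite strand. That of Calr is also on the opposite strand and begins 162 bases before the start. No match overlaps another motif searched.

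Heat shock genes of the cytosol were higher in 7 of 13 members at 5 CPM and lower in none, with a median log2 fold of 0.145. Hspa8, the constitutive HSP70, stood at 744 and 835 CPM in the references against 924 and 934 CPM, and Cacybp, a co-factor of HSP90 complexes, at 44.3 and 40.2 CPM against 51.6 and 49.8 CPM. Their steps were narrow, since 2 of the 7 reached 1.1-fold. Cholesterol and fatty acid synthesis genes were higher in 15 of 23 and lower in 1, with a median of 0.12, and 5 of the 15 reached a step of 1.1-fold. Cyp51 stood at 40.7 and 46.6 CPM against 53.7 and 59.0 CPM, and Hmgcs1 at 99.3 and 95.6 CPM against 120 and 126 CPM. The 1 lower member was Elovl6, a fatty acid elongase, at 13.7 and 15.2 CPM against 10.4 and 10.6 CPM.

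Immediate early genes respond within minutes to handling and hypoxia as well as to signals. Of 24 at 5 CPM, 4 were higher and 1 lower (16.7% and 4.17%), neither above the background of 18.9% and 15.2%. The median log2 fold was 0.22, and it was 0.02 without the second knockout and 0.539 without Hez. Nr4a1, an orphan nuclear receptor, stood at 32.5 CPM in wild type, 68.3 in Hez, and 71.0 and 150 in the knockouts. Zfp36, which degrades cytokine mRNAs, stood at 148 and 231 CPM against 278 CPM in each knockout, and Junb at 55.0 and 74.4 CPM against 91.3 and 114 CPM. Hez exceeded wild type for all 3. Egr2, another early transcription factor, was the member that was lower, at 15.7 and 17.1 CPM against 11.4 and 13.4 CPM.

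MHC class II molecules present antigen on dendritic cells, macrophages, B cells and alveolar type 2 cells. Of 9 genes at 5 CPM, 8 were higher in both knockouts, with a median log2 fold of 0.29. Ciita, the activator of the whole family, stood at 28.8 and 24.3 CPM in the references and 37.2 and 35.3 CPM in the knockouts. The list members Cd74, at 600 and 529 CPM against 725 and 724 CPM, and H2-Ab1, at 263 and 230 CPM against 299 and 337 CPM, were likewise higher. Wild type was above Hez for each of the 3, so it was the nearest reference. H2-Ob, the member that overlapped, is expressed in B cells and was at 59.3 CPM in the first knockout and 38.6 to 41.1 CPM elsewhere.

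Alveolar macrophage markers were higher in 9 of 17 members at 5 CPM (52.9%, beside a background of 18.9%) and lower in 1, with a median of 0.19. Of the 9, only 4 kept a step of 1.1-fold or more. Krt79, a keratin that mouse alveolar macrophages carry, stood at 16.3 and 10.6 CPM against 21.7 CPM in each knockout, and Cd68, a lysosomal protein, at 44.2 and 38.7 CPM against 56.3 and 51.4 CPM. Fabp4, shared with the fat cell list, was the lower member. Monocyte and interstitial macrophage markers were higher in 3 of 14 (21.4%), near the background of 18.9%, and lower in 1. Ccr2, the receptor that brings monocytes out of the marrow, stood at 57.4 and 52.1 CPM against 77.98 and 63.3 CPM, while Cd163, a scavenger receptor, stood at 21.7 and 17.5 CPM against 15.4 and 11.8 CPM.

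B cell markers were higher in 5 of 12 (41.7%, beside a background of 18.9%) and lower in 1, with a median of 0.35. Of the 5, only 2 kept a step of 1.1-fold or more. The median relative to the references was 0.58 in the first knockout but 0.06 in the second. Cr2, the complement receptor of B cells, stood at 8.45 and 6.29 CPM against 12.1 and 12.3 CPM. Neutrophil markers were separated in 0 of 11, with medians of 0.62 in the first knockout and -0.95 in the second. Chemokine and cytokine genes were higher in 3 of 14 (21.4%), near the background of 18.9%, and lower in none. Beside Il33, Ccl6, a chemokine of myeloid cells, stood at 126 and 111 CPM against 178 and 148 CPM. Tnf, at 6.72 and 6.65 CPM in the references and 3.26 and 3.15 CPM in the knockouts, was 2.04-fold apart at the nearest libraries but had a mean under 5 CPM (log2 fold -1.07, edgeR adjusted p = 0.627).

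Endothelial markers were higher in 8 of 23 (34.8%, beside a background of 18.9%) and lower in 1, with a median of 0.05. Of the 8, only 2 kept a step of 1.1-fold or more. Gja5, a gap junction protein of arteries, stood at 46.9 and 57.7 CPM against 69.0 and 72.2 CPM, and Cldn5, a tight junction protein of all lung endothelium, at 295 and 327 CPM against 345 and 369 CPM. Smooth muscle and pericyte markers were lower in 3 of 16 (18.8%), near the background of 15.2%, and higher in none. Higd1b, a pericyte marker, stood at 25.04 and 22.0 CPM against 21.7 and 15.99 CPM.

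The axonemal genes that surround Dnah9 in function were mostly not separated from both references. Outer arm subunits, counting Dnah9, were lower in 3 of 12 and higher in 1, and inner arm subunits in 4 of 14 and 0. Docking and assembly factors were lower in 2 of 16 and higher in 1. Spoke, central pair and nexin link genes were lower in 3 of 26 and higher in 0. Ciliated cell surface, tektin and marker genes were lower in 2 of 23 and higher in 1. The shares on the lower side were 8.7% to 28.6%, beside a background of 15.2%, and on the higher side 0% to 8.33%, beside 18.9%. The medians of the 5 lists were -0.13 to -0.26. Dnai1, an intermediate chain of the outer arm, stood at 15.6 CPM in wild type, 12.6 in Hez, and 12.1 and 10.6 in the knockouts. Dnah6, an inner arm heavy chain, stood at 147, 104, 98.3 and 91.6 CPM, and Hydin, of the central pair, at 56.8, 43.1, 39.5 and 38.5 CPM. For each of these, which were separated, Hez lay just above the knockouts and wild type apart. Others had Hez as the lowest library, such as Rsph4a, a radial spoke head protein, at 48.1 CPM in wild type and 29.6 in Hez against 33.6 and 33.9 CPM, and Tekt1, a tektin, at 19.1 and 11.8 CPM against 15.9 and 14.5 CPM. Set against Hez alone, both knockouts were higher for 15 of 26 spoke, central pair and nexin link genes and for 15 of the 21 ciliated cell surface genes at 5 CPM in those 3 libraries. Over all genes at 5 CPM in those libraries, 33.2% were higher and 32.7% lower in both knockouts than in Hez. Without wild type the medians of these 5 lists were 0.03 to 0.13, and without Hez -0.32 to -0.51, so their direction rested on the wild type library.

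Genes that set up the multiciliated state were lower in 5 of 13 (38.5%) and higher in 2 (15.4%). The background was 15.2% and 18.9%, and the median log2 fold of the list was -0.238. Without wild type they were lower in 4 of 12 and higher in 5, with a median of -0.0899, beside shares over all genes of 32.7% and 33.2%. Gmnc, which starts the program, stood at 13.7 CPM in wild type and 10.8 in Hez against 8.36 and 6.86 CPM, and Deup1, of the deuterosome that multiplies centrioles, at 6.97 and 5.32 CPM against 4.12 and 3.90 CPM. Their steps, 1.29-fold each, were wider than those of the axonemal genes named above. Dnah8, a heavy chain best known from sperm, was the outer arm gene on the higher side, at 5.18 and 6.41 CPM against 6.64 and 8.88 CPM. Club cell markers, from the secretory cells of the same airways, were lower in 3 of 18 (16.7%), near the background of 15.2%, and higher in none. Cyp2f2, a cytochrome of club cells, stood at 1629 and 1501 CPM against 1313 and 1126 CPM. The median of the club cell list was -0.20, and 0.125 without wild type.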

How the data were processed

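Lung RNA was sequenced with a TruSeq kit on an Illumina HiSeq instrument (per the labels' protocols). The authors deposited raw read counts per gene, and FPKM values that equal count over length and total for 66024 of 66024 values above 0 (relative tolerance 1e-06). Reads were placed on GRCm39 per the submitters' processing notes. The sources used here name no aligner, annotation or strand setting, so overlapping genes and near-identical copies may share reads. Counts were scaled by TMM, filtered with filterByExpr (minimum count 10) and tested with edgeR 4.0.16 (R 4.3.3), two-sided, Benjamini-Hochberg threshold 0.05, on 2 arms of 2 libraries (2 residual and 5.72 prior degrees of freedom, biological coefficient of variation 0.105). Standard errors are the log2 fold divided by the square root of F. CPM use TMM-scaled totals, and differences by library a prior count of 2.

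Groups came from the genotype labels, and the first and second knockout were numbered here in the order of their samples. The members and the 48 gene lists were chosen with earlier results of these data known. Named genes are Dnah9, called genes, up to 12 per direction of smallest p, 5 per direction of widest step, and up to 4 members per list described; Arntl, Npas2, Per1, Bhlhe41, Ciart, Per3, Ddit3, Trib3, Canx, Creld2, Pdia6, Adcy3, Pan2, Syvn1, Lep, Ucp1, Scd1, Pparg, Nppa, Nppb, Myh6, Myh7, H2-Ob, Sftpc, Hc, Cldn5, Hydin, Rsph4a, Tekt1, Chil4, Tnf, Elovl6 and the genes at the rule's edge were added after their values were seen. Alternatives were other scalings, filters, DESeq2 1.42.0, limma 3.58.1 on counts (voom) and on log2 FPKM, 3 groups, and each library left out. Egr2 was likewise named after its values were seen, and it was not refitted under these alternatives. Libraries differed by more than sampling noise in every pair (chi-square per gene 8.03 to 11.8). On simulated counts of this comparison over 14674 genes, edgeR found 51.2% of genes changed 1.5-fold, 76.7% at 2-fold and 96.8% at 4-fold, and called 0.0345% of the others. Each of the 5 simulations changed 200 genes. The spread of a gene was set by its expression level alone, with no difference between wild type and Hez. These shares therefore do not give the power of the comparison in the real libraries. Promoters were matched to RefSeq by symbol and carry GRCm38.p6 coordinates, while coordinates of genes are those of the table.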

Additional observations from a re-analysis of the deposited data

How the results depend on the processing

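The count of genes called moved with the method and with single libraries. It was 2 under DESeq2 size factors, library totals or no filter on low counts, 1 at a mean of 10 CPM or more, 22 with DESeq2's Wald test (6 higher, 16 lower), 1 with limma-voom, 1 with limma on log2 FPKM plus 0.5 and 1 plus 0.1, and 0 plus 1 (648 at an unadjusted p under 0.05) or plus 0.5 without a filter (877). With 3 groups 5 were called (1 higher, 4 lower). Leaving out 1 library gave 1 (without wild type) to 107 (without the first knockout), with 8 without Hez and 24 without the second knockout; the lone library of an arm is then assumed to vary like the other arm. Separated genes numbered 93 higher and 115 lower at a step of 1.2-fold or more; with 1 library fewer to separate they numbered 3995 to 4306 higher and 3706 to 4039 lower. With library totals the split was 2055 higher and 2040 lower. Among the genes refitted, log2 folds turned in sign for 10 that overlap with all 4 libraries. With 1 library left out they ran from -0.00752 to 0.177 for Arntl, -0.113 to 0.268 for Myh7, -0.0379 to 0.573 for H2-Ob, -0.24 to 0.0724 for Ddit3, -0.873 to 0.272 for Trib3, -0.939 to 0.202 for Per1, -0.323 to 0.106 for Bhlhe41, -0.513 to 0.182 for Rsph4a, -0.331 to 0.351 for Tekt1 and -2.78 to 11.8 for Chil4, whose highest value is fitted against Hez alone, at 0 counts, and is no bound. The log2 fold of Tekt1 also turned with limma-voom (0.0107), limma on log2 FPKM plus 0.1 (0.00341), plus 0.5 with or without a filter (0.0017) and 3 groups (0.00836). The list counts under other scalings, a 1.1-fold step and each library left out were chosen after seeing the data. With 2 libraries a side and 2 residual degrees of freedom, p-values draw largely on the spread of other genes. No paired analysis was possible because no label pairs a knockout library with a reference library.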
